A study of Homo sapiens with 6 samples.

Results

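The genes described here are 4 long-chain acyl-CoA synthetases (ACSL1, ACSL3, ACSL4 and ACSL5) and 5 fatty acid transport proteins (SLC27A1 to SLC27A5) in C4-2 cells, a castration-resistant derivative of the LNCaP prostate cancer line. They were taken by symbol from the deposited gene table, where all 9 were found among 14456 genes. RNA with polyA tails had been sequenced from 3 libraries of cells given 100 nM IPI-9119, which blocks fatty acid synthase, and from 3 libraries of cells given 0.1% DMSO, both for 6 days in medium with serum. All libraries come from this 1 line, and the labels do not say whether replicates were separate cultures, and a p-value therefore speaks of the spread among these libraries, which may be technical.

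A fatty acid that enters a cell or is released from a lipid must be joined to coenzyme A before it can be built into membranes, stored or burned. ACSL enzymes do this for long-chain fatty acids, and the members differ in the membrane they sit on and in the fatty acids they prefer. SLC27A proteins, also called fatty acid transport proteins, promote uptake of long-chain and very-long-chain fatty acids and most have acyl-CoA synthetase activity of their own. Fatty acid synthase makes palmitate inside the cell, so a cell in which it is blocked has serum and its own lipids as remaining sources.

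Summed over the 14456 genes of the deposited table, the libraries held 19090749 to 23448035 reads. The ratio of means was 0.861 for IPI-9119 over DMSO. Reads outside these genes are not included. Values are normalised counts, the reads of a gene after the authors' scaling of each library by its size factor. The luminal prostate markers KLK3, KLK2, FOLH1, HOXB13, KRT8 and KRT18 were all in the table, and their summed level was 189523 to 199319 with DMSO and 115103 to 122123 with IPI-9119. Of these 6, KLK3 held most of the sum, FOLH1 rose (19514 ± 505 to 26357 ± 574, SD, n = 3, adjusted p 6.98e-07) and the other 5 fell. The 5 leukocyte and 3 adipocyte markers looked up had no row and were not analysed here. Summed endothelial markers (VWF only, 1 of 3) ran from 44.4 to 48.7 with DMSO and 39.0 to 60.5 with IPI-9119, and fibroblast markers (COL1A1 and COL1A2, 2 of 4) from 78.3 to 95.5 and 93.5 to 116.7. In such bulk samples a change in RNA per cell and a change in the share of cells that express a gene cannot be told apart.

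Treatment with IPI-9119 for 6 days went with higher RNA for most of these genes. With limma and Benjamini-Hochberg adjustment over all 14437 genes tested, 6 of the 9 rose (ACSL1, ACSL4, ACSL5, SLC27A2, SLC27A4 and SLC27A5), 1 fell (ACSL3) and 2 did not pass (SLC27A1 and SLC27A3). Over all genes tested 31.3% rose and 31.4% fell, 62.8% in all. A rise of at least 2-fold on the log2 scale was found for 5 members, against 7.92% of all genes. The median log2 fold change of the 9 was 1.14, against 0.0017 for all genes. The 9 were chosen with earlier results of these data known, so the comparisons with all genes are a description. For 8 of the 9, all but SLC27A3, every library of a group lay on the same side of the other group, against 67.9% of all genes. Every member passed the filter of a mean of at least 10, but ACSL5 passed only through its IPI-9119 libraries and SLC27A3 only through its DMSO libraries. The counts and the median given here include both genes and do not stand as support.

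**Figure D1:**
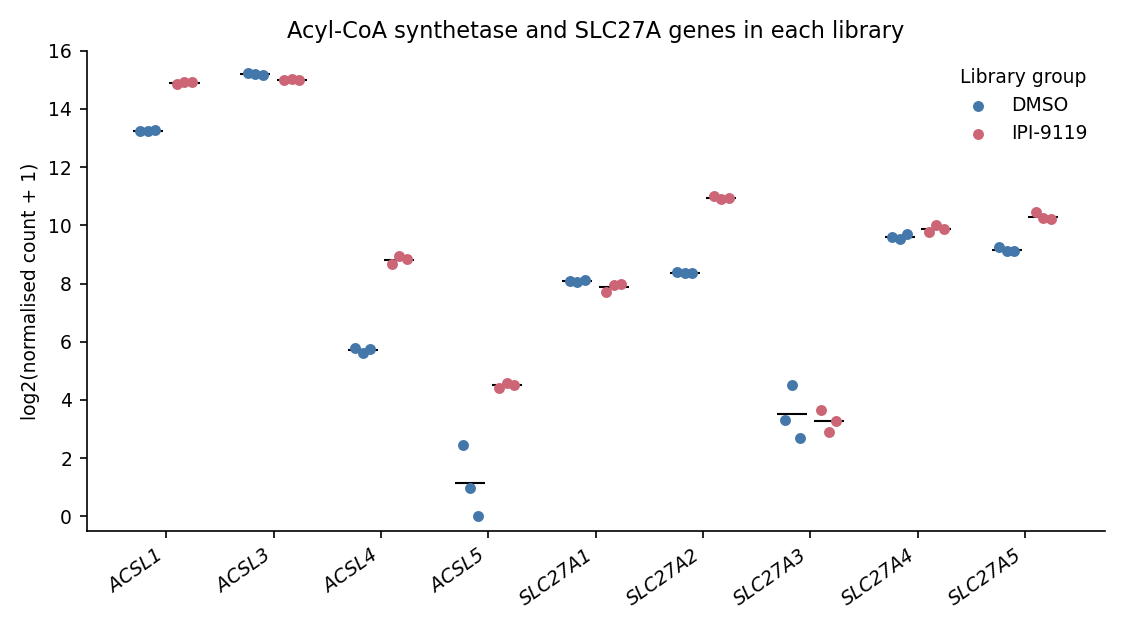
Level of each of the 9 genes in each library as log2(normalised count + 1). Points are libraries (DMSO replicates 1 to 3 and IPI-9119 replicates 1 to 3 from left to right) and bars are group means. ACSL1, ACSL4, ACSL5, SLC27A2 and SLC27A5 stand clearly higher with IPI-9119, ACSL3 slightly lower, and SLC27A3 overlaps between groups.

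Promoters of ACSL1, ACSL4 and SLC27A2, the members that rose most apart from the sparsely read ACSL5, and of ACSL3, which fell, are given here so that the letters near their starts can be read beside the values. Sequences are from RefSeq on GRCh38.p14, 250 bases before to 50 after a start, 5′ to 3′ on the gene's strand. All 9 genes matched the table, with 14 promoters, 5 of them for ACSL1 and 2 for ACSL5. Capitals mark matches on either strand to the SREBP element TCACNCCAC, the NF-Y box CCAAT and the SP1 box GGGCGG.
ACSL1 outermost start chr4:184825919-184826218 minus strand: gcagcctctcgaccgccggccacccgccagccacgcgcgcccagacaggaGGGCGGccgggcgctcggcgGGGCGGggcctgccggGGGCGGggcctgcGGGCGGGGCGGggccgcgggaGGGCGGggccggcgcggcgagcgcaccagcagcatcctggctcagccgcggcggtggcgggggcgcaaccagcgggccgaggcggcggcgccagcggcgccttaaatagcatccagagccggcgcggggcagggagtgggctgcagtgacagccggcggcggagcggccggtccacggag
ACSL1 start with the SREBP element chr4:184805504-184805803 minus strand: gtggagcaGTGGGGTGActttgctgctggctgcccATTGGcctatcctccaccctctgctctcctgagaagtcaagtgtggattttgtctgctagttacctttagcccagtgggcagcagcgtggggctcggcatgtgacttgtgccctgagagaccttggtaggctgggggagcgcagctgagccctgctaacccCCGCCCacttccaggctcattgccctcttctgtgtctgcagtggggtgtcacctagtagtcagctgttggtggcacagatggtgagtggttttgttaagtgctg
ACSL4 chrX:109733208-109733507 minus strand: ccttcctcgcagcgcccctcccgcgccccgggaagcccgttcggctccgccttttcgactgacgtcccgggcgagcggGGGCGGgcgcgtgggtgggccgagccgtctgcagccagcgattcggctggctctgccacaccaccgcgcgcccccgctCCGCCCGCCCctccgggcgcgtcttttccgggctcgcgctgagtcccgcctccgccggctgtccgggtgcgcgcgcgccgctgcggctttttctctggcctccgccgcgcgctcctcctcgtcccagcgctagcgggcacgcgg
SLC27A2 chr15:50181946-50182245 plus strand: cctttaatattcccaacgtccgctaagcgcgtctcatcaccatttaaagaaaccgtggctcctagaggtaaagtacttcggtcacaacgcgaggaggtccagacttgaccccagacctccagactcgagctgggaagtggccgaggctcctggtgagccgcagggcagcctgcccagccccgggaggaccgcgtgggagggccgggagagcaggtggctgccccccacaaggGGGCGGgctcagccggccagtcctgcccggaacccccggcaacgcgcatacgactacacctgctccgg
ACSL3 chr2:222860786-222861085 plus strand: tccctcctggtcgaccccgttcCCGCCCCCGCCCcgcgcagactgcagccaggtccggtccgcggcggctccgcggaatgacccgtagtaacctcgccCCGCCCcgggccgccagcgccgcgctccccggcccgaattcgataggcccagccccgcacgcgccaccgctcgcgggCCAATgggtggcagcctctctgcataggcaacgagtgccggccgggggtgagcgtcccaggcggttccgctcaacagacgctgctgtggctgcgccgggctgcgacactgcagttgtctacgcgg

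The SREBP element, the letters bound by the transcription factors that drive lipid synthesis genes, was found in 1 of the members' 14 promoters, against 1.12% of 34796 promoters. It lies at an inner start of ACSL1, on the other strand, with its first base at -242 from that start, and an NF-Y box follows at -215. At the outermost start of ACSL1 the capitals are SP1 boxes, some of which overlap. The NF-Y box was found in 4 of the 14 promoters (34.6% of all) and the SP1 box in 8 (44.9% of all). The E-box CACGTG was in none (7.20% of all), and the ATF4 and C/EBP composite TTGCNTCA was in 1, of ACSL5 (3.23% of all). The nuclear receptor hexamer AGGTCA was also in 1, of ACSL5 (13.8% of all). A match is only a match of letters, and the deposited gene totals do not show which start was used.

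ACSL1, an isoform known for channelling long-chain fatty acids to triglyceride storage and to oxidation, rose 3.12-fold from an already high level. The gene (ENSG00000151726) spans chr4:184755595-184826818 on the minus strand (GRCh38, GENCODE 29), with 6284 nt of exons. Its values were 9704, 9663 and 10016 normalised counts in the DMSO libraries. In the IPI-9119 libraries they were 29381, 31241 and 30974. Each IPI-9119 library thus lay at least 2.93 times above each DMSO library. The means of 9794 ± 193 and 30532 ± 1005 (SD, n = 3) were 1.64 apart on the log2 scale (SE 0.043, adjusted p 2.03e-12).

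ACSL3, which sits on the endoplasmic reticulum and lipid droplets, was the only member that fell. The gene (ENSG00000123983, chr2:222860934-222944639, plus strand, 7240 nt of exons) gave 38549, 37788 and 36943 normalised counts with DMSO. With IPI-9119 it gave 32740, 33689 and 32320. All IPI-9119 libraries were below all DMSO libraries, by a small margin next to the changes of the other called ACSL genes. The means were 37760 ± 803 and 32916 ± 702 (SD, n = 3), 12.8% lower, and the log2 difference was -0.20 (SE 0.041, adjusted p 7.65e-04). Its exons share 102 nt with the antisense gene ACSL3-AS1, which held only 28 reads over the DMSO and 43 over the IPI-9119 libraries.

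ACSL4, which prefers arachidonic acid and other polyunsaturated fatty acids and is known for supplying the phospholipids oxidised in ferroptosis, rose from a low level. The gene (ENSG00000068366, chrX:109624244-109733403, minus strand, 6415 nt of exons) gave 53.6, 48.1 and 52.4 normalised counts with DMSO. It gave 408, 494 and 453 with IPI-9119. The lowest IPI-9119 library was 7.61 times the highest DMSO library. The means were 51.4 ± 2.88 and 452 ± 43.1 (SD, n = 3), 8.79-fold higher, on 168 reads in all with DMSO and 1252 with IPI-9119. The log2 fold change of 3.11 (SE 0.126, adjusted p 1.01e-10) was the 73rd largest rise among the 14437 genes.

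ACSL5, known from intestine and liver and found on mitochondria and endoplasmic reticulum, was nearly unread with DMSO. The gene (ENSG00000197142, chr10:112374018-112428380, plus strand, 4236 nt of exons) had 5, 1 and 0 reads with DMSO, and 19, 21 and 20 with IPI-9119. Every IPI-9119 library was above every DMSO library. The totals of 6 and 60 reads gave a depth-adjusted ratio of 11.8, with an exact 95% interval of 5.11 to 33.4 that covers counting error only. The log2 fold change was 3.36 (SE 0.601, adjusted p 2.25e-04) and depends on the pseudocount, being 1.62 with a pseudocount of 8. Its total of reads lay just above 61, the lowest total of any gene in the deposited table. ACSL5 thus passed the filter on low values only through its IPI-9119 libraries, and its call does not stand as support. Its exons share 144 nt with ZDHHC6 on the opposite strand, which had 545 ± 16.5 normalised counts in DMSO libraries, against 733 ± 45.3 in IPI-9119 libraries (SD, n = 3). How reads in such shared stretches were counted is not given in the sources used here.

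Among the fatty acid transport proteins, SLC27A2 changed most. SLC27A2, or FATP2, activates very-long-chain fatty acids and is best known from liver and kidney. The gene (ENSG00000140284, chr15:50182196-50236395, plus strand, 2802 nt of exons) gave 333, 331 and 327 normalised counts with DMSO. It gave 2072, 1936 and 1949 with IPI-9119. The libraries within each group were close together, and the lowest IPI-9119 library was 5.81 times the highest DMSO library. The means were 330.5 ± 3.27 and 1986 ± 74.8 (SD, n = 3), 6.01-fold higher, and the log2 difference was 2.58 (SE 0.064, adjusted p 1.19e-12). Its exons share 557 nt with ATP8B4 on the opposite strand, a gene with 7 reads over the DMSO libraries and 62 over the IPI-9119 libraries.

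SLC27A5, or FATP5, which joins coenzyme A to bile acids and very-long-chain fatty acids in liver, rose 2.205-fold. The gene (ENSG00000083807, chr19:58479512-58512413, minus strand, 8025 nt of exons) gave 610.5, 550.1 and 560.2 normalised counts with DMSO. It gave 1399, 1216 and 1180 with IPI-9119. No DMSO library reached an IPI-9119 library, and the nearest were 1.93 times apart. The means were 574 ± 32.3 and 1265 ± 117 (SD, n = 3), and the log2 difference was 1.14 (SE 0.077, adjusted p 1.84e-08). Its exons share 1131 nt with ZNF446 on the opposite strand, which had 189 ± 6.95 normalised counts in DMSO libraries, against 85.1 ± 2.02 in IPI-9119 libraries (SD, n = 3; log2 difference -1.14, adjusted p 2.69e-06). Of the 3 hepatocyte markers looked up, APOA1 and TTR were in the table, and their sum rose from between 7.35 and 14.2 with DMSO to between 56.9 and 79.6 with IPI-9119. The rise of the sum came mostly from TTR, which had 4 reads over the DMSO and 153 over the IPI-9119 libraries. TTR thus passed the filter on low values only through its IPI-9119 libraries, and its call does not stand as support. It passed the test (log2 fold change 4.86, adjusted p 1.04e-06) and APOA1 did not (0.43, adjusted p 0.434). The part of these markers in the SLC27A2 and SLC27A5 results was not tested.

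SLC27A4, or FATP4, a widely expressed transporter of the endoplasmic reticulum, rose slightly. The gene (ENSG00000167114, chr9:128340646-128361470, plus strand, 3110 nt of exons) gave 776, 745 and 823 normalised counts with DMSO. It gave 876, 1036 and 936 with IPI-9119. The groups did not overlap, but the nearest libraries were only 1.065 times apart. The means were 781 ± 39.1 and 949 ± 80.9 (SD, n = 3), 21.5% higher, and the log2 difference was 0.28 (SE 0.075, adjusted p 0.00496).

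SLC27A1 and SLC27A3 did not pass the test. SLC27A1, or FATP1, the insulin-responsive transporter of muscle and fat (ENSG00000130304, chr19:17468769-17506168, plus strand, 8249 nt of exons), gave 273, 266 and 276 normalised counts with DMSO. It gave 207, 248.7 and 253 with IPI-9119. The log2 fold change was -0.21 (SE 0.107, adjusted p 0.110), although all IPI-9119 libraries were below all DMSO libraries. Its direction reversed, to 0.49 (adjusted p 3.36e-04), when the log2 differences of all genes were adjusted for gene length and base composition. SLC27A3, an acyl-CoA synthetase of the same family (ENSG00000143554, chr1:153774354-153780157, plus strand, 5470 nt of exons), had 10, 23 and 6 reads with DMSO and 11, 6 and 8 with IPI-9119. The ratio of totals was 0.755 (exact 95% interval 0.438 to 1.28, counting error only), and the log2 fold change was -0.22 (SE 0.490, adjusted p 0.715), or 0.28 (adjusted p 0.674) without DMSO replicate 2. A change of that size was not detectable at this depth. Its exons share 455 nt with INTS3 on the same strand, which had 877 ± 60.6 and 513 ± 78.0 normalised counts (SD, n = 3).

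**Figure D2:**
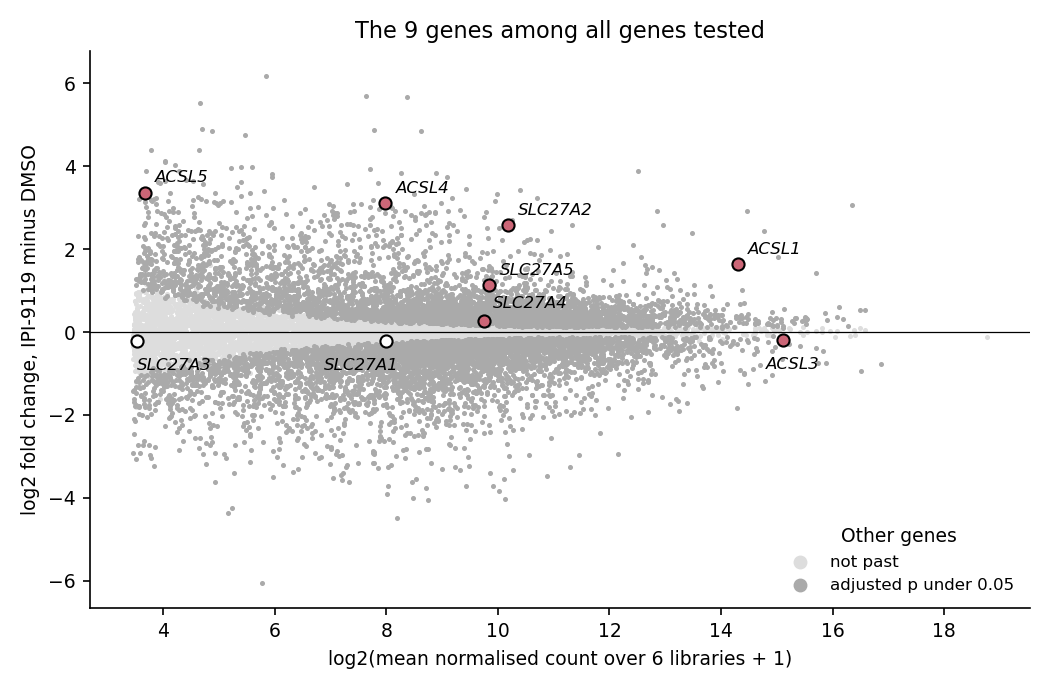
Log2 fold change (IPI-9119 minus DMSO) against log2(mean normalised count + 1) for all 14437 genes tested. Large points are the 9 genes, filled where the adjusted p was under 0.05 and open where not. ACSL3 and ACSL1 lie at the far right among the most abundant genes, and ACSL4, ACSL5 and SLC27A2 near the upper edge of the cloud.

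Scaled by length, to normalised counts per kilobase of merged exons, the genes can be compared with each other. With DMSO the order was ACSL3 (5215 ± 111 per kilobase, SD, n = 3), ACSL1 (1559 ± 30.7), SLC27A4 (251 ± 12.6), SLC27A2 (118.0 ± 1.17), SLC27A5 (71.5 ± 4.03), SLC27A1 (32.9 ± 0.586), ACSL4 (8.01 ± 0.449), SLC27A3 (2.20 ± 1.56) and ACSL5 (0.426 ± 0.556). Only the last pair of neighbours overlapped between libraries. ACSL3 was in rank 150 of 14392 genes and ACSL1 in rank 606. With IPI-9119 the order began with ACSL1 (4859 ± 160.0 per kilobase) and ACSL3 (4546 ± 96.9), now in ranks 181 and 201, followed by SLC27A2 (709 ± 26.7) and SLC27A4 (305 ± 26.0). After these came SLC27A5 (158 ± 14.6), ACSL4 (70.4 ± 6.72), SLC27A1 (28.6 ± 3.10), ACSL5 (5.11 ± 0.347) and SLC27A3 (1.64 ± 0.463), and no neighbours overlapped.

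The leading gene of each family was thus a different one in each group. In the ACSL family, ACSL3 held 77.4%, 77.1% and 76.1% of the family total per kilobase in the DMSO libraries. It held 48.8%, 47.9% and 47.1% in the IPI-9119 libraries. ACSL1 went from 23.0% ± 0.696 to 51.2% ± 0.798 (SD, n = 3), and ACSL4 from 0.118% ± 0.0062 to 0.742% ± 0.0537. The ratio of ACSL1 to ACSL3 per kilobase was 0.299 ± 0.0118 in DMSO libraries, against 1.07 ± 0.0351 in IPI-9119 libraries (SD, n = 3). With the longest annotated transcript as the length it was 0.359 ± 0.0142 and 1.28 ± 0.0422. The family total rose from 6783 ± 88.1 to 9481 ± 221 per kilobase, 1.40-fold. This total and the shares leave out ACSL6, which had 1.13 per kilobase in DMSO and 2.16 in IPI-9119 libraries.

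In the SLC27A family, SLC27A4 held 52.1%, 51.8% and 54.5% of the family total per kilobase with DMSO, and 23.0%, 27.6% and 25.6% with IPI-9119. SLC27A2 took its place, with 24.8%, 25.6% and 24.0% with DMSO and 60.5%, 57.2% and 59.1% with IPI-9119. SLC27A5 held 15.0% ± 0.769 and 13.1% ± 0.998 (SD, n = 3) and SLC27A1 6.92% ± 0.0492 and 2.38% ± 0.296, although the RNA of SLC27A5 rose. The family total rose 2.53-fold, from 476 ± 11.8 to 1202 ± 23.8 per kilobase. The exact two-sided permutation p was 0.1 for both totals and for each of the 9 shares, 0.1 after adjustment over the 9 shares, and 0.1 is the smallest value that 3 against 3 libraries can give. The ratio of ACSL1 to ACSL3 was chosen after its values were seen and is a description.

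**Figure D3:**
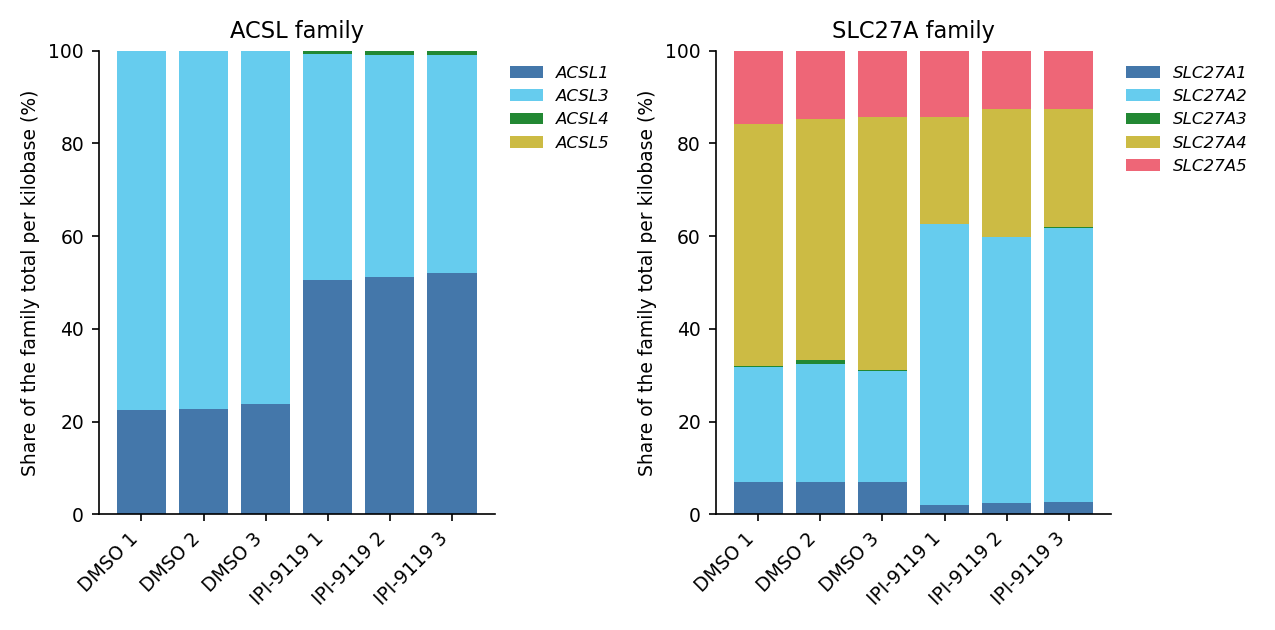
Share of each gene in the summed level per kilobase of the members of its family shown (without ACSL6), in percent, for each library. In the left panel (ACSL) the ACSL1 part grows from about 23.0% to 51.2% with IPI-9119, and in the right panel (SLC27A) the SLC27A2 part grows from 24.8% to 59.0%.

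Whether members of a family differed in their change was read from the ratio of their values in each library. The log2 ratio of ACSL4 to ACSL3 was -9.50 ± 0.081 in DMSO libraries, against -6.19 ± 0.121 in IPI-9119 libraries (SD, n = 3), 3.31 higher. The log2 ratio of SLC27A2 rose by 2.79 against SLC27A1, 2.80 against SLC27A3, 2.30 against SLC27A4 and 1.445 against SLC27A5. The ratio to the sparsely read SLC27A3 was the least steady. Its SD in DMSO libraries was 0.909, against 0.035 to 0.083 for the other SLC27A2 ratios. For all 5 ratios each IPI-9119 library lay above each DMSO library. The exact two-sided permutation p was 0.1, the smallest possible here, before and after adjustment over the 5. Each pair set a gene with a large rise against one with a smaller rise, no call or a fall. The separation therefore largely restates the fold changes above and is not further support.

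Of the other acyl-CoA synthetases, ACSS2 stood out by the size of its change. Of 17 listed, 9 were in the table and tested. Among them 3 rose, 2 fell and 4 were not called, with a median log2 difference of 0.15. These counts are to be read against 31.3% of all genes tested that rose and 31.4% that fell. ACSS2, which makes acetyl-CoA from acetate in cytosol and nucleus, gave 768, 817 and 772 normalised counts with DMSO and 3084, 3163 and 3141 with IPI-9119. Its log2 fold change was 1.99 (SE 0.053, adjusted p 2.32e-12), larger than that of ACSL1. ACSM3, a medium-chain synthetase whose annotated span contains ACSM1 on the opposite strand, fell (-0.33, adjusted p 1.76e-04). The remaining calls were small or rested on few reads. ACSL6, the ACSL member best known from brain, had 14.7 ± 4.78 and 28.1 ± 4.06 normalised counts (SD, n = 3; log2 fold change 0.92, adjusted p 0.0190). It did not pass when DMSO replicate 1 (adjusted p 0.0627), DMSO replicate 2 (0.0583) or IPI-9119 replicate 1 (0.0653) was left out, or with DESeq2 (0.0556). AACS, of ketone body use, was called higher (0.15, adjusted p 0.0292), but not when DMSO replicate 1 (0.0935), DMSO replicate 2 (0.0908) or IPI-9119 replicate 2 (0.142) was left out, or without trend and robust moderation (0.0882). Adjusted for length and base composition, its value was 0.83 (adjusted p 1.44e-07). AACS is named only to complete the count. ACSF3, a mitochondrial malonyl-CoA synthetase, was called lower (-0.27, adjusted p 0.0403). It missed the threshold when any DMSO replicate (0.163, 0.0534 and 0.0583 for replicates 1 to 3) or IPI-9119 replicate 1 (0.148) was left out, with quantile scaling (0.205), without trend and robust moderation (0.0782) and with DESeq2 (0.0584). Adjusted for length and base composition, the value was 0.40 (adjusted p 0.00218).

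Acyl-CoA thioesterases run the reaction backwards, releasing the free fatty acid. Of 13 listed, 8 were tested, of which 4 rose, 0 fell and 4 were not called (median log2 difference 0.21), against 31.3% higher and 31.4% lower among all genes. The mitochondrial enzymes ACOT13 (0.49, adjusted p 1.14e-05) and ACOT9 (0.49, adjusted p 3.29e-05) rose most, below the rises of the 5 most changed members. ACOT7 (0.27, adjusted p 0.0118) and ACOT2 (0.24, adjusted p 0.00965) rose slightly. ACOT2 is a close copy of ACOT1, so reads may be split between them, and it did not pass when DMSO replicate 2 was left out (adjusted p 0.0519), without trend and robust moderation (0.0546) or adjusted for length and base composition (0.13, adjusted p 0.101).

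Acyl-CoA binding proteins carry the product of the synthetases through the cytosol. Of 6 listed and tested, 3 rose, 1 fell and 2 were not called (median log2 difference 0.22), beside the same 31.3% and 31.4% of all genes. ACBD7, at 16.8 ± 4.99 normalised counts in DMSO and 73.1 ± 3.34 in IPI-9119 libraries (SD, n = 3), rose by 2.10 on the log2 scale (adjusted p 6.83e-06), and ACBD6 rose too (0.55, adjusted p 9.38e-05). The Golgi protein gene ACBD3 fell (-0.37, adjusted p 5.39e-04). The peroxisomal protein gene ACBD5 was called higher (0.21, adjusted p 0.0145), but not when DMSO replicate 1 (0.0635) or IPI-9119 replicate 2 (0.0721) was left out, and its value adjusted for length and base composition was -0.029 (adjusted p 0.717). DBI, the main acyl-CoA binding protein, had 9303 ± 387 and 9220 ± 440.5 normalised counts (SD, n = 3; log2 difference -0.013, adjusted p 0.832). Adjusted for length and base composition, DBI was called lower (-0.259, adjusted p 6.14e-05).

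For fatty acid uptake and binding, 5 of 14 listed genes were tested, of which 4 rose, 0 fell and 1 was not called, where 31.3% of all genes rose and 31.4% fell. The median log2 difference, 2.45, is the value of FABP6, which passed the filter on low values only through its IPI-9119 libraries, so neither this count nor the median stands as support. LPL, the lipase that frees fatty acids from lipoproteins, gave 14.3, 8.49 and 11.0 normalised counts with DMSO and 80.1, 87.3 and 81.4 with IPI-9119 (log2 fold change 2.80, adjusted p 3.46e-07). MFSD2A, a transporter of lysophospholipids that carry docosahexaenoic acid, rose from 26.0 ± 2.22 to 172 ± 14.8 (SD, n = 3; log2 fold change 2.68, adjusted p 9.94e-09). FABP6, the bile acid binding protein of the ileum, had 17 reads over the DMSO and 87 over the IPI-9119 libraries (2.45, adjusted p 8.95e-05, or 1.58 with a pseudocount of 8). GOT2, a mitochondrial aminotransferase also described as a fatty acid binding protein of the plasma membrane, rose by 0.57 (adjusted p 5.27e-08). The other listed genes, CD36 and CAV1 among them, were not analysed here.

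**Figure D4:**
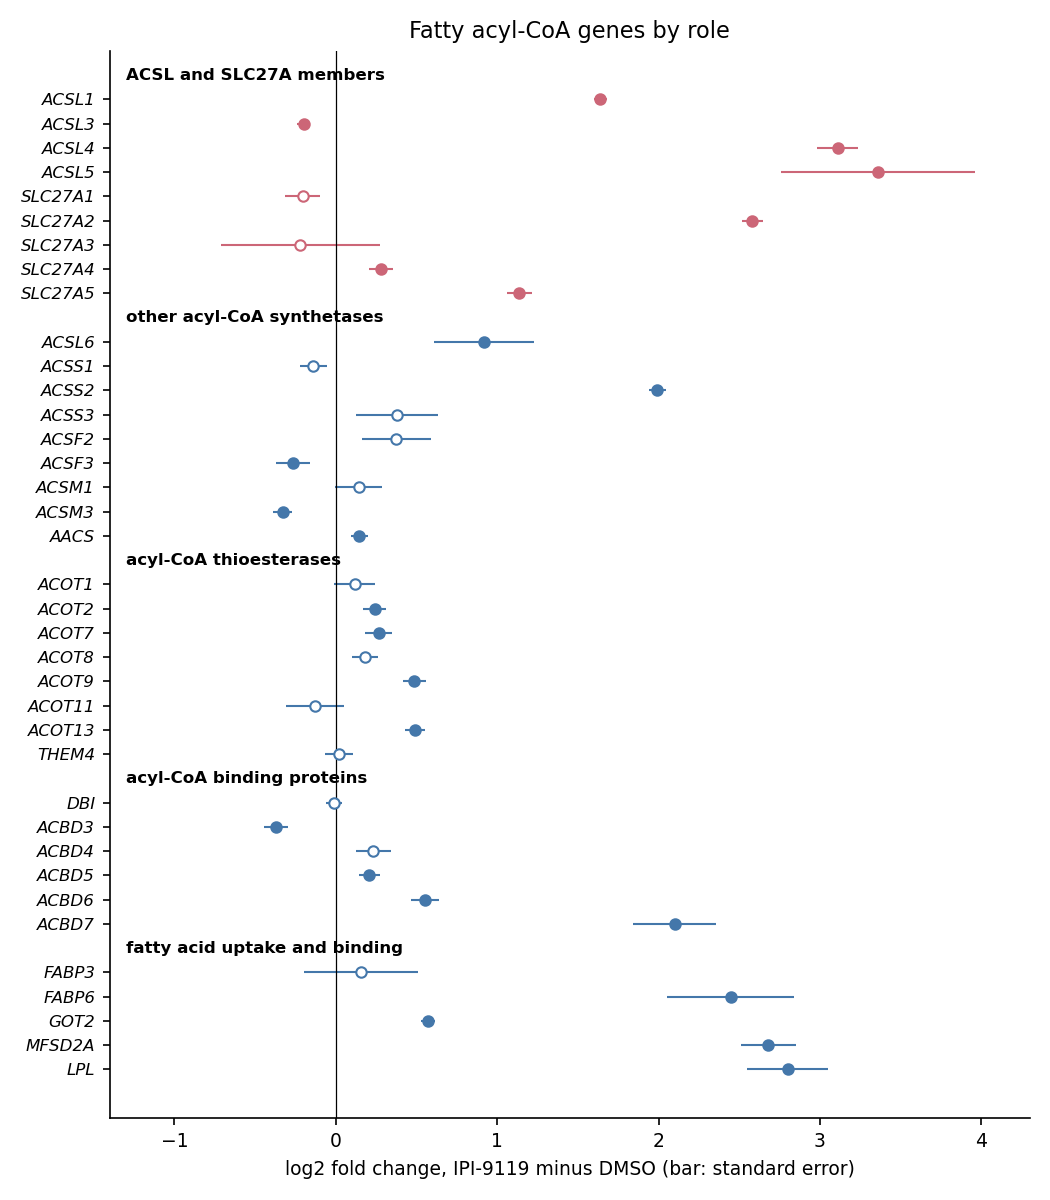
Log2 fold change (IPI-9119 minus DMSO) with its standard error for the 9 ACSL and SLC27A genes and for the tested genes of 4 related lists. Filled points had an adjusted p under 0.05 and open points did not. ACSL4, ACSL5 and SLC27A2 lie beyond 2, as do LPL, MFSD2A, FABP6 and ACBD7, while the thioesterases stay under 0.50.

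The genes whose pattern was most like that of a strongly changed member were sought by distance over the 6 libraries in log2(normalised count + 1), after subtracting the DMSO mean, among 10342 genes with a mean of at least 100. Such a distance over 6 libraries mainly reflects the size of the group difference. For ACSL1 the nearest were DHCR7 (distance 0.0971), the last enzyme of cholesterol synthesis, SNX10 (0.105) and GCNT2 (0.147). For ACSL4 they were the desaturase gene SCD (0.211), the mitotic kinesin gene KIF20A (0.234) and GPNMB (0.354). SLC27A2 was nearest to the sterol oxidase gene MSMO1 (0.127), SFTPA2 (0.132) and CDK1 (0.157), and SLC27A5 to B2M (0.120), EIF4A2 (0.136) and CDK2 (0.146). ACSL5, with its few reads, had no close neighbour, the nearest being CCNA2 (1.43), ID3 (1.52) and AURKA (1.58). SNX10, KIF20A, CCNA2 and ID3 reached a mean of 100 only through their IPI-9119 libraries. Their DMSO means were 66.7, 87.2, 77.9 and 25.3, and their nearness does not stand as support.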

How the data were processed

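Each deposited value is a signal: reads per gene, scaled by the authors with 1 size factor a library. Per the submitters' processing notes, the build was GRCh38 and the tools included STAR 2.5.2b, Trimmomatic 0.36, Subread 1.5.2, featureCounts and DESeq2, whose roles are not given. Annotation release and strand setting are not given in the sources used here. All values (100%) were whole multiples of 1 read within 0.01, which gave the reads back. Counts of replicate pairs differed beyond sampling noise, with a chi-square of 2.30 to 9.60 for each degree of freedom.

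Log2(value + 1) was tested with limma 3.58.1 (R 4.3.3, trend, robust, two-sided) for genes with a mean of at least 10, which removed 19, and an adjusted p under 0.05 was called. Fold changes on this scale understate low genes. Alternatives were edgeR 4.0.16 (quasi-likelihood) and DESeq2 1.42.0 on the recovered reads, which called 9081 and 8460 genes against 9061, other pseudocounts (0.5, 8), filters, scalings, moderation, a replicate block, a length and GC correction (splines, 4 degrees of freedom) and leaving out each library. Positions and lengths came from GENCODE 29. The members and lists were chosen with earlier results of these data known. Named genes are the members, the 4 called genes of each other list with the largest change (plus the largest the other way where these go one way), and the 3 genes most like each member called with a log2 change of at least 1. Some of the markers and a motif that were looked up are not reported here.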

Additional observations from a re-analysis of the deposited data

How the results depend on the processing

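ACSL1, ACSL4, SLC27A2, SLC27A4 and SLC27A5 stayed called higher and ACSL3 called lower under all 17 alternatives, and ACSL5 under the 16 that could test it. Their log2 fold changes ran from 1.565 to 1.667 for ACSL1, -0.33 to -0.183 for ACSL3, 2.93 to 3.18 for ACSL4, 1.62 to 4.02 for ACSL5, 2.41 to 2.63 for SLC27A2, 0.21 to 0.34 for SLC27A4 and 1.06 to 1.496 for SLC27A5. ACSL5 passed the filter on low values only through its IPI-9119 libraries, so its calls under the 16 alternatives do not stand as support. Same-numbered libraries deviated together with correlations of 0.141, 0.0634 and 0.0044, and differently numbered ones with -0.145 to 0.0985. Correlations this small cannot decide whether the numbers pair the libraries. With a replicate block 6 members were called higher and 1 lower, as without it, while the calls over all genes became 4797 and 4799.

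The length and GC correction turned SLC27A1 (0.494), SLC27A3 (0.143), ACBD5 (-0.029), ACOT1 (-0.020), ACOT11 (0.164), ACSF3 (0.403), ACSM1 (-0.014), ACSS1 (0.192) and THEM4 (-0.207). With it 5 other synthetases were called higher and 1 lower, and 1 thioesterase and 2 binding proteins (DBI and ACBD3) lower. Leaving out 1 library at a time gave values of either sign for SLC27A3 (-0.621 to 0.280), DBI (-0.051 to 0.020), THEM4 (-0.031 to 0.077), FABP3 (-0.037 to 0.396) and ACOT11 (-0.254 to 0.001), none past the test, and brought other synthetases to 1 to 3 called higher and 1 to 2 lower. Other synthetases called lower were 1 with quantile scaling, without trend and robust moderation, and with DESeq2. With a mean of at least 50, 2 uptake genes were called higher, since fewer genes are tested. With the longest transcript as the length, shares with IPI-9119 minus those with DMSO were 29.4 (ACSL1), -30 (ACSL3), 0.528 (ACSL4), -7.11 (SLC27A1) and -23.2 (SLC27A4) percentage points, and with a pseudocount of 8 the ratio of ACSL4 to ACSL3 rose by 3.15. Apart from the smaller filter, the cause was not tested. ACSL5 and SLC27A3, with 66 and 64 reads in all, are limited by depth.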
